A study of Mus musculus with 20 samples.

Results

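Bhlhe40 and Bhlhe41, also known as DEC1 and DEC2, are paralogous transcriptional repressors, and their messenger RNA was followed here in whole mouse adrenal glands with and without a labelled deletion of the clock gene Bmal1. They were chosen by name, as 2 of the 47729 genes in the deposited table. RNA sequencing gave 20 libraries: 5 from control females, 5 from Bmal1 KO females, 6 from control males and 4 from Bmal1 KO males. By their age labels, control females were 1.5 to 3.4 months old and Bmal1 KO females 2.4 to 3.4 months, while control males were 2.9 to 4.7 months old and Bmal1 KO males 2.9 to 3.7 months. All 4 groups carry the driver named SCC::Cre in their genotype label, the controls as SCC::Cre_CTRL and the others as SCC::Cre_BMAL1 KO. SCC is the usual name of the side-chain cleavage enzyme, encoded by Cyp11a1 and made in steroid-producing cells, and a whole gland also holds medulla, vessels, nerves, capsule and blood cells, in which that enzyme is not made. In such bulk tissue, fewer cells of a type and less RNA per cell cannot be told apart. Reads of Bmal1 itself (Arntl) did not fall under the Bmal1 KO label, at 905 ± 71.8 (SD, n = 5) against 618 ± 147 (n = 5) in females and 923 ± 69.8 (n = 4) against 663 ± 238 (n = 6) in males. Which exons the deletion removes is not given in the sources used here, so a count over the whole gene does not check the labels, and every direction by genotype rests on them. The hour at which glands were taken is not given in the sources used here, and for clock genes a difference in hour between groups cannot be told apart from genotype or sex.

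BMAL1 and its partner CLOCK (or NPAS2) bind E-boxes, short DNA elements of the form CACGTG, and switch on genes whose products later repress them. Bhlhe40 and Bhlhe41 belong to this feedback: each is a basic helix-loop-helix protein of the Orange subfamily, is switched on through E-boxes, and then occupies E-boxes itself as a repressor. The remaining arms are formed by the period and cryptochrome proteins, which bind the CLOCK and BMAL1 complex, and by the REV-ERB nuclear receptors, which act on Bmal1 transcription. Bhlhe40 is also known as a gene that answers to low oxygen, cyclic AMP and cytokines and that is active in macrophages and lymphocytes.

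Both genes lie on chromosome 6 (GRCm38). Bhlhe40 (ENSMUSG00000030103, chr6:108660629-108666925, plus strand) has 4705 exonic bases, and Bhlhe41 (ENSMUSG00000030256, chr6:145858243-145865558, minus strand) has 6720. RefSeq's promoter sequences (GRCm38.p6) held an entry for Bhlhe41, and for Bhlhe40 none was matched. The stretch of the Bhlhe41 promoter that lies before the outermost GENCODE start is shown because it holds a CACGTG E-box, the element that BMAL1 and both members bind. It covers chr6:145865559-145865670, is written 5′ to 3′ on the minus strand, and has the CACGTG in capitals.
Bhlhe41 upstream stretch: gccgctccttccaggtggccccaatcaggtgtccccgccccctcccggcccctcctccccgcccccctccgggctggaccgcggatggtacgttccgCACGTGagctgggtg

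The E-box sits at chr6:145865568-145865573, with 9 bases between it and the GENCODE start. The RefSeq start lies 138 bases past the GENCODE start, and the E-box begins at -153 from that RefSeq start. The Bhlhe41 window searched below ends at the RefSeq start and so also covers bases not shown. Among 32851 RefSeq promoter windows of 250 bases before a start, 6.02% held CACGTG on either strand. Of 17 other clock genes with an entry, 4 held it there: Per1, Cry1, Ciart and Tef. In the Bhlhe41 window no match was found on either strand for CACGTT (a variant E-box), TTANGTAA (the D-box of DBP and NFIL3) or TGACGTCA (the cyclic AMP element). Over all windows these were held by 3.85%, 2.06% and 1.55%. A match or its absence describes these letters only.

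Libraries held between 13421985 and 26742820 whole reads. Levels are given as normalised read counts, the deposited values. Bhlhe40 had 937 to 3511 reads per library and Bhlhe41 60 to 483, all above the floor of 3 reads used for detection. A test is called passed at a Benjamini-Hochberg adjusted p under 0.05 from limma, fitted to log2(value + 1) of 26612 genes in all 20 libraries, and every adjusted p is of that kind unless another tool or test is named. Differences are on that log2 scale with their standard error (SE). Nothing in the labels says that libraries of equal age label came from separate animals, so p-values measure the spread between these libraries. Genes on the opposite strand overlap both members, and the strand setting of the counting is not given. These partners stayed low: 0610040F04Rik, which overlaps Bhlhe40, had group medians from 3.84 to 6.57 normalised reads, and Gm43909, which overlaps Bhlhe41, from 3.84 to 10.1.

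Bhlhe41 was lower in Bmal1 KO glands of both sexes, at about a 3.06-fold reduction in females and 3.09-fold in males. In replicates 1 to 5, control females gave 188, 339, 171, 255 and 234 normalised reads, against 70.1, 75.9, 106, 74.1 and 55.2 with the Bmal1 KO label. Every Bmal1 KO female lay below every control female. Means were 237 ± 66.1 (SD, n = 5) and 76.3 ± 18.6 (n = 5), a log2 difference of -1.61 ± 0.23 (SE, limma adjusted p = 0.000319). The 6 control males ranged from 193 to 445 with a median of 348, and the 4 Bmal1 KO males read 71.7, 118, 140 and 91.7. The groups were again apart, with means of 329 ± 91.1 (SD, n = 6) and 105 ± 29.9 (n = 4) and a log2 difference of -1.63 ± 0.24 (SE, limma adjusted p = 0.000566). As background, limma called 1.75% of all genes tested in females and 1.33% in males, and 0.635% and 0.567% as lower in Bmal1 KO. Values of the groups did not overlap, with Bmal1 KO lower, for 1.44% of genes in females and 1.49% in males. Between the female and the male effect lay a difference of 0.01 (95% interval -0.68 to 0.71, limma adjusted p = 0.998), and an effect that differs between the sexes within that interval could not be detected here. The call held in each sex with any 1 of its 10 libraries left out.

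Bhlhe40 did not follow its paralog. In control females it gave 2613, 1784, 1738, 1642 and 1860 normalised reads, against 2386, 2913, 2658, 2800 and 3230 with the Bmal1 KO label. The overlap between the groups came from control female 1, at 2613, which lay above Bmal1 KO female 1. Means were 1928 ± 391 (SD, n = 5) and 2798 ± 312 (n = 5). The log2 difference of 0.55 ± 0.15 (SE) did not pass the test (95% interval 0.25 to 0.86, limma adjusted p = 0.0615). Without control female 1 it was 0.67 and passed (limma adjusted p = 0.0134), while with any other female library left out it did not (adjusted p from 0.057 to 0.159). It also passed with DESeq2 (adjusted p = 0.0162) and when limma was given the female libraries alone (adjusted p = 0.048), and did not with edgeR (adjusted p = 0.059). Without the 2 control females of 1.5 months the difference was 0.47 with adjusted p = 0.287.

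In males Bhlhe40 ranged from 931 to 1488 in the 6 controls, with a median of 1264, and read 1525, 1116, 1597 and 1278 in Bmal1 KO. The ranges overlapped over most of their length. Means were 1222 ± 250 (SD, n = 6) and 1379 ± 222 (n = 4), and the log2 difference of 0.19 ± 0.15 (SE) did not pass (95% interval -0.13 to 0.50, limma adjusted p = 0.732). The female effect exceeded the male effect by 0.37 (95% interval -0.07 to 0.80), which did not pass either (limma adjusted p = 0.853), where limma called 0.0301% of all genes for this difference between effects.

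**Figure D1:**
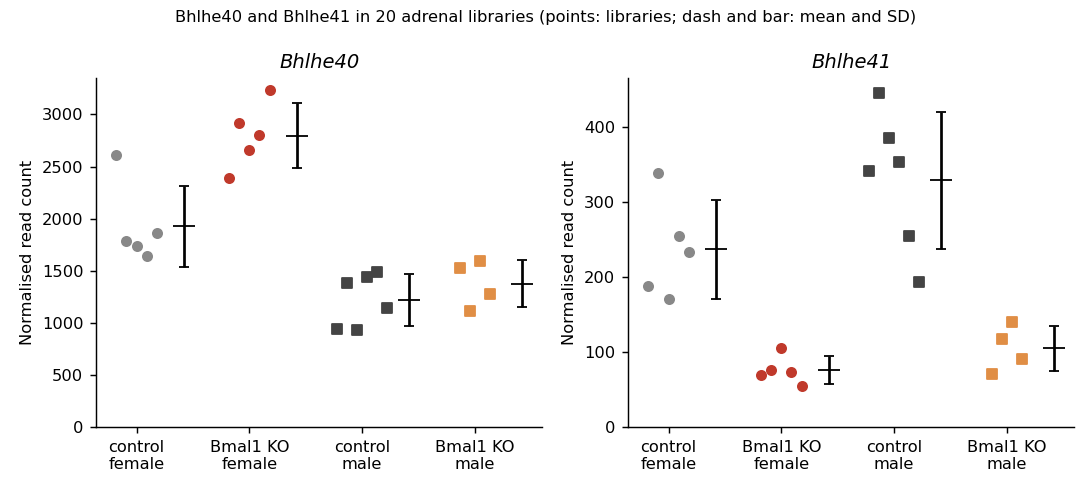
Normalised read counts of Bhlhe40 (left) and Bhlhe41 (right) in each of 20 libraries, with axes starting at 0; each point is 1 library, a dash marks the group mean and a bar its SD. Bhlhe41 is lower in every Bmal1 KO library than in every control of the same sex, whereas for Bhlhe40 the control female at 2613 lies within the Bmal1 KO female range and the male groups overlap.

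**Figure D2:**
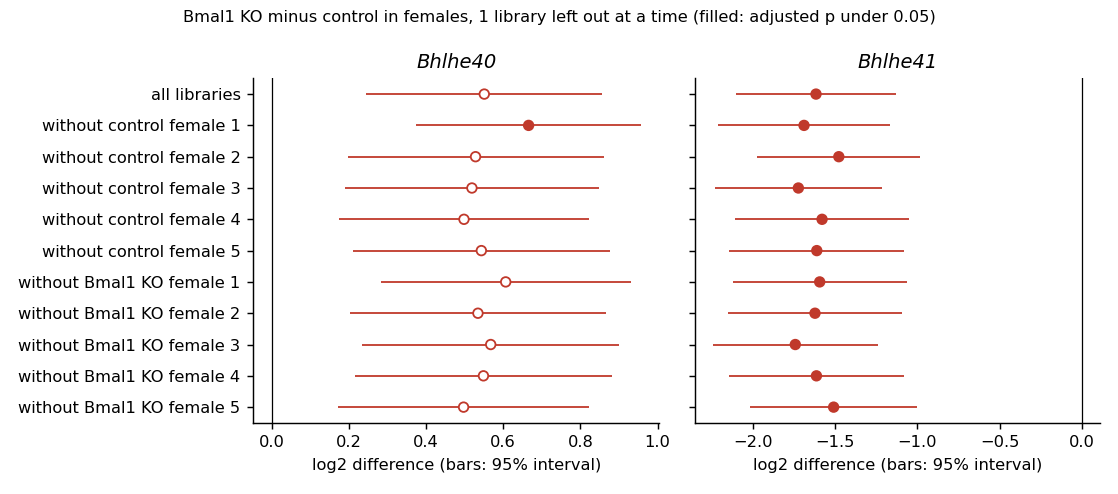
Log2 difference of Bhlhe40 and Bhlhe41 between Bmal1 KO and control females with all libraries and with 1 library left out at a time; bars are 95% intervals and filled points have limma adjusted p under 0.05. The Bhlhe40 difference passes without control female 1 and in no other line of the plot, and the Bhlhe41 difference passes in all of them.

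Control female 1 was the library with the highest Bhlhe40 among controls, and genes of some lists were also at an extreme there. Of 11 genes of the cyclic AMP and immediate early response, 7 were highest of the 5 control females in that library, and of 9 adrenal cortex genes 6 were lowest in it. Of 6 capsule and stroma genes 4 were highest there, and of 8 chromaffin genes 4 were lowest. Of 4 clock activators 2 were highest and 0 lowest, and of 5 Schwann and sustentacular genes 2 were highest and 0 lowest. Of 8 lymphocyte genes 0 were highest and 2 lowest. Other lists held genes of both kinds, none, or 1 lowest gene. Of 19 other E-box binding factors 6 were highest and 5 lowest, and of 12 hypoxia genes 3 were highest and 2 lowest. Of 6 period and cryptochrome repressors and of 8 macrophage markers, 0 were highest and 0 lowest. The share over all genes is not given here, so these counts are a description. The summed macrophage markers of that library, at 13219 normalised reads, were the second highest of the group, after control female 5 at 32337 and above the other 3 at 8499 to 9034. Bhlhe40 in control female 5, at 1860, was the second highest. The other groups did not share 1 order. Control male 5 was highest of its group in both the macrophage sum (9396) and Bhlhe40 (1488). Bmal1 KO female 1 had the highest sum of its group (17648) and the lowest Bhlhe40 (2386). In Bmal1 KO males, replicate 4 had the highest sum (10986) with Bhlhe40 at 1278, and replicate 1 the lowest (6019) with 1525. The part of these shifts in the Bhlhe40 values was not tested.

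Set against each other, the paralogs differed more under the deletion label, and most of this lay in Bhlhe41. Its log2 differences were -1.61 in females and -1.63 in males, while those of Bhlhe40, 0.55 and 0.19, did not pass the test. The ratio was taken as log2 of (Bhlhe41 + 1)/(Bhlhe40 + 1) in each library. In females it averaged -3.04 ± 0.55 (SD, n = 5) without and -5.20 ± 0.44 (n = 5) with the deletion label, a fall of 2.17 with a two-sided exact permutation p = 0.00794. In males it averaged -1.92 ± 0.55 (SD, n = 6) without and -3.73 ± 0.50 (n = 4) with the deletion label, which differed by -1.81 with exact permutation p = 0.00952. Both are the smallest p-values that these group sizes allow, and over the 4 ratio tests made, those by sex included, each adjusted p = 0.0173. Per kilobase of exon, Bhlhe40 was the more abundant transcript in all 20 libraries. Its level per kilobase was 7.52 to 19.8 times that of Bhlhe41 in control females (median 11.4) and 35.8 to 83.6 times in Bmal1 KO females (median 54.0). In males it was 3.45 to 8.44 times in controls (median 5.13) and 13.5 to 30.4 times in Bmal1 KO (median 18.1).

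**Figure D3:**
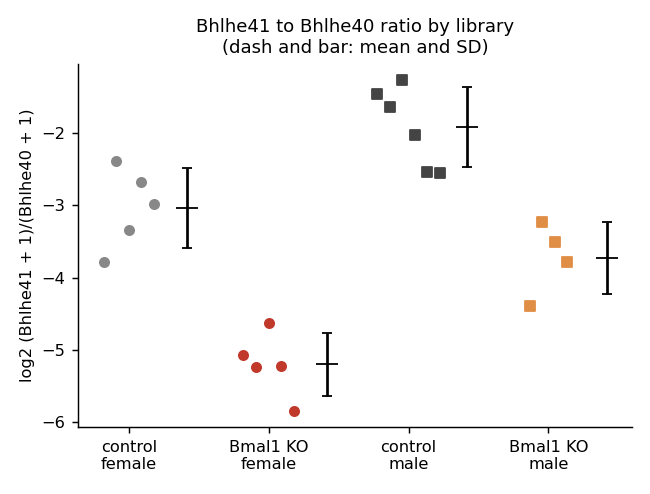
Log2 ratio of Bhlhe41 to Bhlhe40 in each library, on an axis that does not start at 0; each dash marks a group mean and each bar its SD. Within each sex every Bmal1 KO library lies below every control, and control males, at -2.56 to -1.27, reach the highest ratios.

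The order of levels differed between the paralogs too. Bhlhe40 ran from Bmal1 KO females over control females and Bmal1 KO males to control males. Its neighbours within a sex did not pass the test, and the step between control females (lowest 1642) and Bmal1 KO males (highest 1597) separated their ranges. Bhlhe41 ran from control males over control females and Bmal1 KO males to Bmal1 KO females. There the step between control females (lowest 171) and Bmal1 KO males (highest 140) separated the ranges, and the sexes within a genotype did not pass the test.

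Bhlhe40 was higher in females than in males in both genotypes. In controls the log2 difference was 0.66 ± 0.14 (SE, limma adjusted p = 0.0013), with every control female above every control male. In Bmal1 KO it was 1.03 ± 0.16 (SE, limma adjusted p = 5.41e-05), with the lowest female at 2386 and the highest male at 1597. Sex differences were common in these glands, and limma called 26.4% of all genes tested in controls (13.5% higher and 12.9% lower in females) and 22.8% in Bmal1 KO (12.1% higher and 10.6% lower). Values did not overlap, with females higher, for 7.32% and 11% of genes. Markers of cell types differed by sex beside Bhlhe40. Of 8 macrophage markers 2 were called higher in control females, Lyz2 by 1.10 and Cd68 by 0.77 (limma adjusted p = 0.0105 and 0.0101), and in Bmal1 KO Lyz2 was higher by 1.13 and Mrc1 lower by 0.59 (limma adjusted p = 0.0188 and 0.000776). Of 9 cortex genes 5 were higher and 1 lower in control females, and with the deletion label 4 were higher in females and 0 lower. In control females 1 of 8 lymphocyte genes was called higher, and 2 of 7 endothelial and 1 of 5 Schwann and sustentacular genes lower. In Bmal1 KO females 3 lymphocyte and 1 chromaffin gene were higher, and 2 endothelial, 2 Schwann and sustentacular and 1 capsule gene lower. Of 7 adipocyte genes 0 were called by sex in either genotype. Their part in the Bhlhe40 difference was not tested. Bhlhe41 pointed the other way without passing, at -0.46 ± 0.22 in controls (SE, limma adjusted p = 0.142) and -0.45 ± 0.25 in Bmal1 KO (0.212). The control difference passed without control male 6, at -0.60 (adjusted p = 0.0396). The Bhlhe41 to Bhlhe40 ratio was lower in females by 1.12 in controls (exact permutation p = 0.0173) and by 1.48 in Bmal1 KO (exact permutation p = 0.0159, the smallest these group sizes allow). Without the 2 control females of 1.5 months the control comparison no longer passed (-1.26, exact permutation p = 0.0714).

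Age was not balanced between the groups. The 2 control males of 2.9 months had the lowest Bhlhe41 of their group, 255 and 193, and the 4 control males of 3.1 to 4.7 months read 342 to 445. In control females the 1.5-month libraries, at 255 and 234, lay between the 2.7-month libraries at 171 and 339. With age as a covariate the Bhlhe41 differences by genotype were -1.64 in females and -1.59 in males (limma adjusted p = 0.000526 and 0.00156). The Bhlhe40 difference by sex in controls was then 0.64 (limma adjusted p = 0.0215).

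**Figure D4:**
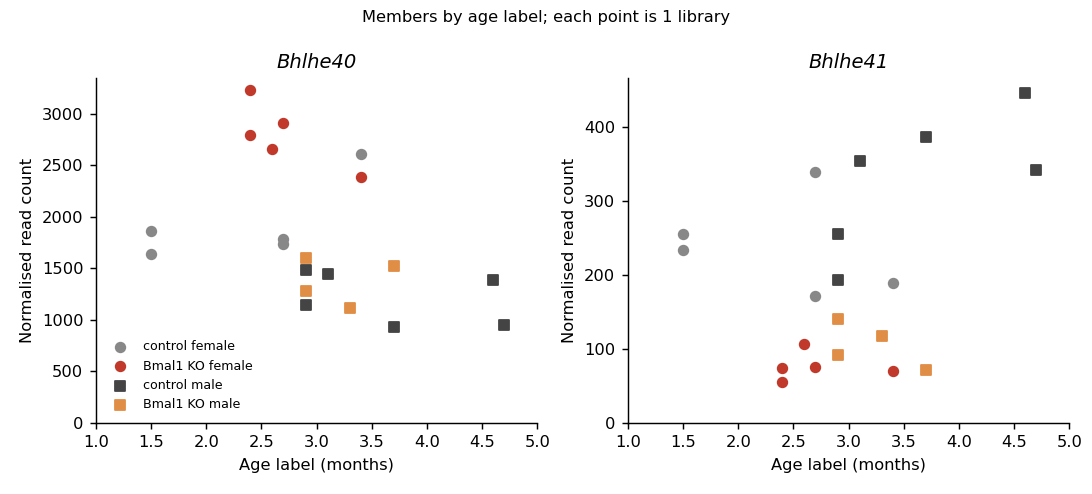
Normalised read counts of Bhlhe40 (left) and Bhlhe41 (right) against the age label in months; each point is 1 library, circles are females and squares males. At the ages where the groups meet, from 2.4 to 3.7 months, Bmal1 KO libraries hold the lowest Bhlhe41 values, and the control males of 2.9 months lie at 193 and 255.

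With group means subtracted, no shared movement of the paralogs from library to library was detected. Pearson's r was -0.206 (permutation p = 0.445) and Spearman's rho -0.177 (permutation p = 0.501) over 20 libraries. Without the 2 libraries farthest from the median of Bhlhe40, r was -0.0384. With no group means subtracted, r was -0.508 over the 11 controls and -0.597 over the 9 Bmal1 KO libraries. Those values take in the differences between the sexes.

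Other genes of the clock were read beside the pair from a list of 18. With the deletion label, 5 rose and 4 fell in females, and 5 rose and 4 fell in males. Of all genes, limma called 1.12% as higher in females and 0.763% in males, and 0.635% and 0.567% as lower. Of these clock genes 8 were called in the same direction in both sexes. The lower genes were the REV-ERB receptors Nr1d1 and Nr1d2, the output factor Dbp and the period gene Per3. Log2 differences in females and males were -3.40 and -2.59 for Nr1d1, -2.72 and -2.12 for Nr1d2, -2.69 and -2.32 for Dbp, and -1.14 and -1.01 for Per3. The Bhlhe41 difference therefore lay between those of Dbp and Per3 in size in both sexes. Cry1, Cry2 and Per2, repressors of CLOCK and BMAL1, were higher in both sexes, as was Npas2, a partner of BMAL1. Nfil3, a repressor at D-boxes, was called in females alone (1.26) and Clock in males alone (0.42). The difference between the female and the male effect passed for 0 of the 18 genes with limma, edgeR or DESeq2. In limma 4 were at unadjusted p under 0.05 for it. By sex, limma called 4 of the 18 higher and 5 lower in control females than in control males. In Bmal1 KO it called 4 higher and 4 lower in females. Of all genes it called 13.5% higher and 12.9% lower in control females, and 12.1% and 10.6% in Bmal1 KO females. Per2 in males was a narrow call (0.96, limma adjusted p = 0.0409) that was lost without any 1 male library other than control male 4 or 6 (limma adjusted p up to 0.161, without Bmal1 KO male 3). In males the Per3 call was lost without control male 2 or 3 or Bmal1 KO male 1 or 2 (limma adjusted p up to 0.0942), and the Cry2 call when Bmal1 KO male 1 or 3 or control male 3 was left out (up to 0.0816). The Bhlhe40 difference in females, at 0.55, was of the size of Cry2 (0.55 ± 0.09 SE, limma adjusted p = 0.00108), whose spread between libraries was smaller.

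**Figure D5:**
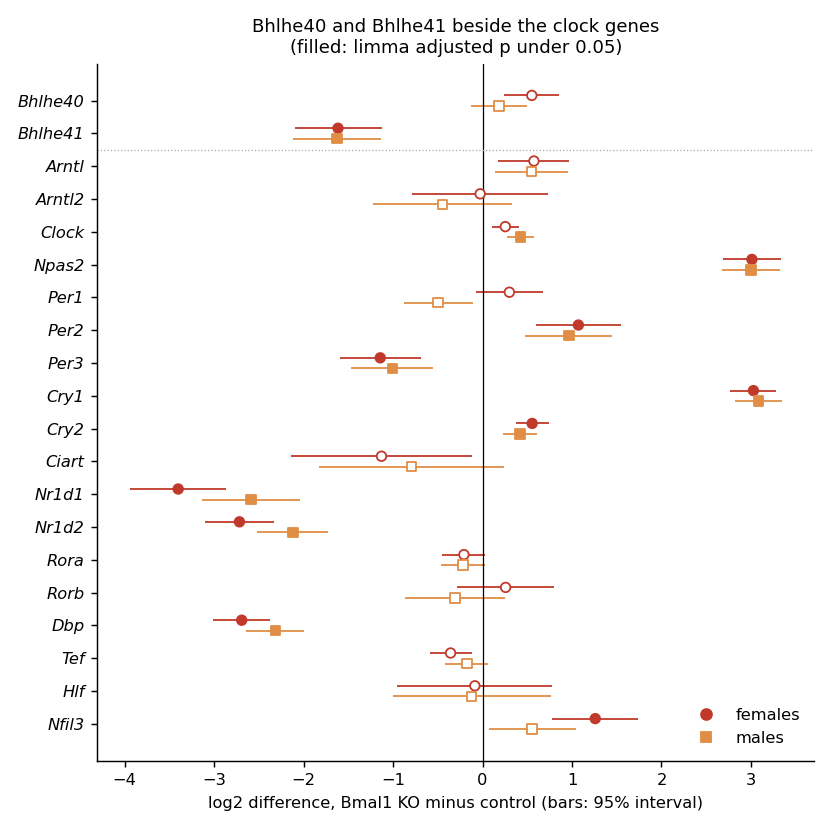
Log2 difference between Bmal1 KO and control for Bhlhe40, Bhlhe41 and 18 other clock genes in females (circles) and males (squares); bars are 95% intervals and filled points have limma adjusted p under 0.05. Bhlhe41 lies at -1.61 and -1.63, between Per3 and Dbp, and Bhlhe40 lies at 0.55 and 0.19 with open points.

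The closest relatives of the pair by sequence family were read from a list. Of 10 HES, HEY and HELT genes, which are Orange-domain repressors, 8 could be tested. In females limma called 0 of them, with 2 at unadjusted p under 0.05 and 0 by edgeR and by DESeq2, and the median log2 difference was -0.24, while 1.75% of all genes were called. Heyl, named after its value was seen, had the largest female difference of the 8, at -1.01 (95% interval -1.76 to -0.26, limma adjusted p = 0.211). In males, where 1.33% of all genes were called, 1 was lower, Hes6, by 0.77 on the log2 scale (limma adjusted p = 0.0318), a call lost without control male 1 or 3 or Bmal1 KO male 2 or 4 (adjusted p from 0.068 to 0.145). The list's male median was -0.26, and the median over all genes tested was 0.00034 in males. Hes1, the other well expressed member, had no call by genotype and was lower in females than in males by 0.84 in controls and by 0.94 in Bmal1 KO (limma adjusted p = 3.10e-05 and 3.52e-05).

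Other factors that bind E-boxes, among them USF, MYC, SREBP and MITF proteins, formed a list of 19. Against 1.75% of all genes in females and 1.33% in males, limma called 0 of them in females, with 2 at unadjusted p under 0.05 and 0 by edgeR and by DESeq2. In males 1 was called, the hypoxia factor gene Epas1, higher by 0.31 ± 0.07 (SE, limma adjusted p = 0.0201), which was lost with the male libraries alone (adjusted p = 0.0825) and without control male 2 (0.0509) or Bmal1 KO male 3 (0.0927). Srebf1, the best expressed of them after Epas1, differed by no called amount in either sex.

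Pathways known to induce Bhlhe40 were read beside it. Of 12 hypoxia-responsive genes 1 was higher in Bmal1 KO females, against 1.12% of all genes, the prolyl hydroxylase gene Egln3, by 1.70 ± 0.35 (SE, limma adjusted p = 0.0106). Without the 2 control females of 1.5 months this was 1.45 with adjusted p = 0.118. Vegfa and Bnip3, the best expressed of the list, were not called by genotype. In males limma called 0, with 4 at unadjusted p under 0.05 and 0 by edgeR and by DESeq2. The list's median log2 difference was 0.02 in females and 0.04 in males. Of 11 cyclic AMP and immediate early genes limma called 0 in either sex by genotype, with 1 at unadjusted p under 0.05 in females and 3 in males, and 0 by edgeR and by DESeq2. The median was 0.20 in females and -0.29 in males. By sex, 8 of 11, Nr4a1 and Junb among them, were lower in control females than in control males, where 12.9% of all genes were called lower, and 0 were higher. In Bmal1 KO 3 were lower, against 10.6% of all genes, and 0 higher.

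Markers of the cells that a whole gland holds were summed per library. The sum of 9 cortex genes was 1180960 to 1556810 normalised reads for control and 1114260 to 1395080 for Bmal1 KO females. For males it was 891234 to 1386660 without and 752148 to 1106610 with the deletion label, and there Star and Cyp11a1 were lower by 0.69 and 0.71 on the log2 scale (limma adjusted p = 0.0238 and 0.0321). In females Star differed by -0.53 (95% interval -0.84 to -0.22, limma adjusted p = 0.0815) and limma called 0 of the 9, with 2 at unadjusted p under 0.05, 0 by edgeR and 1 lower by DESeq2. The macrophage sum ran from 10729 to 17648 in Bmal1 KO females, from 7303 to 9396 in control males and from 6019 to 10986 in Bmal1 KO males, and by genotype Mrc1 was the 1 member limma called, lower by 0.59 in Bmal1 KO females. The lymphocyte sum was 398 to 1426 for control and 512 to 961 for Bmal1 KO females. Beside all of these marker counts, limma called 1.75% of all genes by genotype in females and 1.33% in males. At such shares 0 calls in lists this short say little about cell makeup. Of the chromaffin, lymphocyte, endothelial, Schwann and sustentacular, adipocyte and capsule lists, limma called 0 members by genotype in either sex, with 0 to 3 members of each at unadjusted p under 0.05. With edgeR that count was 0 too, and DESeq2 called 2 lymphocyte and 1 endothelial gene in females and 1 lymphocyte and 1 adipocyte gene in males. No defining marker of any of the 8 cell type lists was at 0 throughout a group. The part of cell makeup in the members' values was not tested.

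Genes with the most similar pattern were ranked by Pearson's r over all 20 libraries among 13625 other genes with a mean of at least 50 normalised reads. Such an r takes in the differences between groups and is given as a description. For Bhlhe41 the highest were Gna14, a G protein subunit, at 0.908, Gulo, the last enzyme of vitamin C synthesis, at 0.905, Nr1d2 at 0.901, Rasd1, a Ras-like GTPase, at 0.897 and Sord, the sorbitol dehydrogenase, at 0.894. With group means subtracted these r values were 0.513, 0.331, 0.262, 0.523 and 0.249. The most opposite were Lrrc58 at -0.929, Cry1 at -0.923, Npas2 at -0.921, the nucleotidase gene Nt5c2 at -0.908 and the glycosyltransferase gene Galnt7 at -0.907. These Bhlhe41-like and Bhlhe41-opposite genes were all called by genotype in both sexes, a feature that the ranking favours.

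For Bhlhe40, itself different by sex, the ranking returned genes that differed by sex, again a feature that the ranking favours. The highest were N4bp1 at 0.925, the heparan sulfate sulfotransferase genes Hs3st1 at 0.923 and Hs6st1 at 0.908, Chmp2b, of the membrane-cutting ESCRT machinery, at 0.911, and the ubiquitin ligase gene Rnf125 at 0.909. The lowest were the RNA polymerase subunit gene Polr2l at -0.900, the acyl-CoA synthetase gene Acsbg1 at -0.893, Prr15 at -0.888, Tesc at -0.886 and Tmem52 at -0.881. All of them were called by sex in controls and in Bmal1 KO, where limma called 26.4% and 22.8% of all genes. Of the highest group Hs3st1 was the 1 gene called by genotype in both sexes, higher in Bmal1 KO by 1.15 in females and 0.97 in males (limma adjusted p = 0.00439 and 0.0254). In females alone Rnf125 (1.41), Hs6st1 (0.41) and Chmp2b (0.21) were called higher (limma adjusted p from 0.0023 to 0.0403). Acsbg1 (-1.88) and Tmem52 (-0.83) were called lower in females alone (limma adjusted p = 0.000245 and 0.0175). N4bp1, Polr2l, Prr15 and Tesc were called by genotype in neither sex. Over the same libraries r between the paralogs themselves was -0.604.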

How the data were processed

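Whole adrenal RNA was sequenced after TruSeq library preparation, per the labels' protocols. The submitters' processing notes name featureCounts, Salmon, DESeq2, FastQC and MultiQC with the builds mm10 and GRCm38. For versions, roles, aligner and strand the entry is: not given in the sources used here. As deposited, the values are a signal, 1 normalised read count per gene and library. All positive values (100%) were whole multiples of 1 step per library within 0.001 of a read, so whole reads were recovered. edgeR, run on these reads for comparison, called 518 genes by genotype in females and 401 in males.

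limma 3.58.1 (R 4.3.3) was fitted with trend to log2(value + 1), for genes reaching 1 normalised read in 4 or more libraries, with a mean for each group and Benjamini-Hochberg adjustment over all genes; log2 differences understate changes of low genes. Alternatives used edgeR 4.0.16, DESeq2 1.42.0, other pseudocounts, filters, scaling, covariates and left-out libraries. The fits were tested on simulated data. Ratios were compared by exact permutation over libraries, and the relation within groups by 100000 permutations. Exon lengths and coordinates are from GENCODE M21. Of the table's columns, 0 had no sample.

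The members and gene lists were chosen with earlier results of these data known. Genes named were both members, all clock list genes, in the text or in the plot of clock genes (1 is not reported here), other list genes past the threshold by genotype or among the best expressed of their list, and the 5 highest and 5 lowest by r.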

Additional observations from a re-analysis of the deposited data

Results flagged for a closer look

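Bhlhe40 in control female 1, at 2613 normalised reads, stood apart from the other 4 control females, which read 1642 to 1860. The gap to the next library was 0.775 of the group's range, above Dixon's critical value of 0.71 for 5 samples. Chance alone gives such a value in about 1 in 20 groups, and Bhlhe40, Bhlhe41 and their ratio were each examined in 4 groups. The same library carried the highest level of 7 of 11 immediate early genes among control females, a count without an all-gene share beside it. Its age label, 3.4 months, was the highest of its group.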

How the results depend on the processing

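The Bhlhe41 differences by genotype and the Bhlhe40 differences by sex kept direction and call under every alternative run. The Bhlhe40 difference in females passed with the female libraries alone (0.55, adjusted p = 0.048) and with DESeq2 (0.54), and ranged from 0.50 to 0.67 with 1 library left out. The Bhlhe41 difference by sex in controls ranged from -0.60 to -0.35 with 1 library left out. The Bhlhe41 difference between the female and male effects, not called anywhere, changed sign with age as a covariate (-0.049) and with TMM scaling (-0.0024) and ranged from -0.16 to 0.16 with 1 library left out. The ratio by sex in controls was -1.26 (exact permutation p = 0.0714) without the youngest control females.

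Genes called in females numbered 467, 906 with DESeq2 and 264 without the youngest control females. In males they numbered 354, 730 with DESeq2, 219 with the male libraries alone, and 217 to 484 with 1 library left out (217 without Bmal1 KO male 4, 229 without control male 2). For the difference between effects 8 were called, 0 with age as a covariate, 70 with DESeq2, 5 with the replicate block and 0 to 16 with 1 library left out. By sex in controls, 7023 became 3746 with age as a covariate. The causes were not tested.

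With the replicate number as a block within sex, Bhlhe41 differed by -1.62 in females (adjusted p = 0.00174) and -1.88 in males (0.00202), and Bhlhe40 by 0.55 (0.189) and 0.25 (0.699). Same-numbered libraries correlated from 0.0137 to 0.233 in females and from -0.103 to -0.0191 in males in their deviations from group means. Among the Bmal1 KO libraries of their sex, control females 1, 2 and 4 correlated best with their own number. Control females 3 and 5 and control males 1 to 4 did not. Within each group the numbers run from the highest to the lowest age label. Same-numbered males had unlike age labels, such as 4.7 months in control male 1 and 3.7 months in Bmal1 KO male 1. The numbers were not taken as pairs in the main fit, and the block values above show the result if they are. The block could not be fitted for the sex comparisons. Of 430 alternatives to 21 calls of other clock and list genes, 400 kept the call and 30 lost it, with no change of direction. Depth was lowest for Bhlhe41, at 60 reads in its lowest library.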
